A study of Mus musculus with 6 samples.

Results

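Upper-layer projection neurons are the late-born excitatory neurons of the cerebral cortex, and 9 genes that mark them or act in them were followed here in libraries of mouse embryos labelled Csmd3-/-, in which Csmd3 was lower but not absent. The genes were Cux1, Cux2, Pou3f1, Pou3f2, Pou3f3, Rorb, Rasgrf2, Lmo4 and Mdga1, chosen by symbol from GENCODE M21, and all 9 were found among the 55401 gene rows of the deposited table. Bulk RNA sequencing had been performed on cortex at embryonic day 18 from C57BL/6 embryos born of heterozygous Csmd3 matings, with 3 wild-type libraries and 3 libraries of the Csmd3-/- genotype. Every library thus shared the stated strain, tissue and stage, and of the items stated only genotype differed between the groups. Transcripts of meninges and choroid plexus also differed in level between the groups, as given below. The part of Csmd3 that was removed, and whether libraries came from separate embryos, are not stated by the labels; p-values then measure the spread between these libraries, which may in part be technical.

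Neurons of the cortex are generated in sequence, with deep layers formed first and upper layers last. Most upper-layer neurons connect cortical areas with each other, many of them across the corpus callosum. Transcription factors that act in them include the CUT homeodomain proteins Cux1 and Cux2 and the POU proteins Pou3f1 to Pou3f3. Of these, Pou3f2 and Pou3f3 are already active in the progenitors. Bulk cortex does not show in which layers a gene is expressed. Rorb, an orphan nuclear receptor, marks neurons of layer IV, and Lmo4 is a LIM-only adaptor that binds other transcription factors. Mdga1 is a membrane-anchored immunoglobulin protein of layer II and III neurons, and Rasgrf2 is a calcium-responsive exchange factor that activates Ras and Rac.

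Of the 9 genes 4 fell in the knockout libraries and 0 rose with TMM scaling, and of the 4 Cux2 and Pou3f1 moved to values just above 0 with scaling on pan-neuronal genes. Without any 1 knockout library 2 of the 9 fell, and without wild-type library 3 the 4 fell and 1, Pou3f2, rose. Rasgrf2 fell to 39.2% of its wild-type level, Lmo4 to 69.1%, Cux2 to 76.5% and Pou3f1 to 77.1%. Mdga1, Pou3f3, Rorb, Cux1 and Pou3f2 did not pass the test. Across all 19844 genes tested, 2.53% were called lower and 5.21% higher in knockout (7.74% in either direction) by edgeR's quasi-likelihood test at an adjusted p under 0.05. The median log2 fold change of the 9 genes was -0.15, against 0.0020 over all genes tested, and this median turned to 0.24 when libraries were scaled on pan-neuronal genes. In 5 of the 9 genes all knockout values lay below all wild-type values, and in 0 above, where 13.5% of all tested genes had the knockout below and 15.6% above (29.1% in either direction). The knockout also lay below in 12 of 15 pan-neuronal genes (1 above) and 7 of 12 interneuron genes (0 above). It did so in 4 of 14 deep-layer and subplate genes (3 above) and 4 of 20 further upper-layer and callosal genes (0 above). Fewer upper-layer neurons and less of a transcript in each neuron cannot be told apart in bulk tissue. The median log2 fold change of 15 pan-neuronal genes was also negative, at -0.33, and 10 of 12 meningeal and mural genes rose. The part of tissue composition in the falls was not tested.

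**Figure D1:**
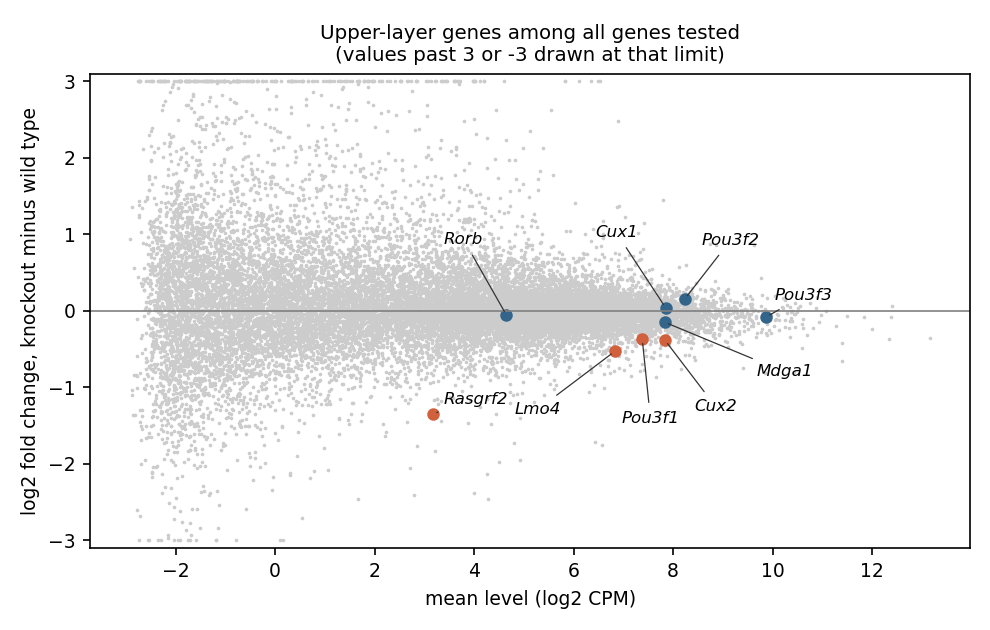
Log2 fold change (knockout minus wild type, TMM scaling) against mean level in log2 CPM for the 19844 genes tested (grey), with the 9 upper-layer genes marked in orange where the adjusted p was under 0.05 and in blue otherwise; values past 3 or -3 are drawn at that limit. Rasgrf2 lies at -1.35, apart from the other 8 genes, and the sign of Cux2 and Pou3f1 turned, at values near 0, with scaling on pan-neuronal genes.

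The targeted gene was examined first. Csmd3 had 992, 765 and 867 deposited counts in wild type against 675, 653 and 543 in the knockout libraries (a log2 fold change of -0.59, SE 0.13, adjusted p = 0.0233). It was lower but not absent, and counts over the whole gene include exons that a partial deletion would leave. The libraries held between 54244288 and 68269607 counts in total. The cortical marker Tbr1, a factor of early cortical neurons, was present at 352 ± 2.31 CPM in wild type (SD, n = 3). Libraries 2 and 3 of the knockout group held the choroid plexus transcript Ttr at 35.7 and 452 CPM, against 1.91 in knockout library 1 and at most 0.0670 in wild type. Without those 2 libraries 0 of the 9 genes passed the edgeR test, 4 had an unadjusted p under 0.05, and the log2 fold changes were -1.19 for Rasgrf2, -0.54 for Lmo4, -0.34 for Cux2 and -0.35 for Pou3f1. That fit assumes that the lone knockout library left varied like the others. Knockout library 1, the one left, was low in Ttr but had the highest summed level of 12 meningeal and mural genes. That sum was 833 CPM in it, against 675 and 793 CPM in knockout libraries 2 and 3 and at most 130 CPM in wild type.

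Levels of the 9 genes can be compared per length, in CPM per kilobase of exon (the union of annotated exons). In wild type the order ran from Pou3f3 at 130 ± 7.70 (SD, n = 3) through Pou3f2 (51.0 ± 11.9), Pou3f1 (48.8 ± 1.37), Lmo4 (38.0 ± 4.49), Cux2 (25.7 ± 2.02), Mdga1 (25.1 ± 1.56), Cux1 (11.4 ± 0.805) and Rorb (2.31 ± 0.356) down to Rasgrf2 (1.395 ± 0.153). Pou3f2 and Pou3f1 overlapped in range, as did Cux2 and Mdga1, and all other neighbours in this order were separate. In knockout no neighbours overlapped, Pou3f2 (56.7 ± 2.77) stood above Pou3f1 (37.7 ± 1.42), and Mdga1 (22.6 ± 0.538) stood above Cux2 (19.7 ± 0.632). The remaining positions were the same. The union of exons makes the level of Cux1, with 20024 bases, a low estimate wherever only some of its exons are used.

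**Figure D2:**
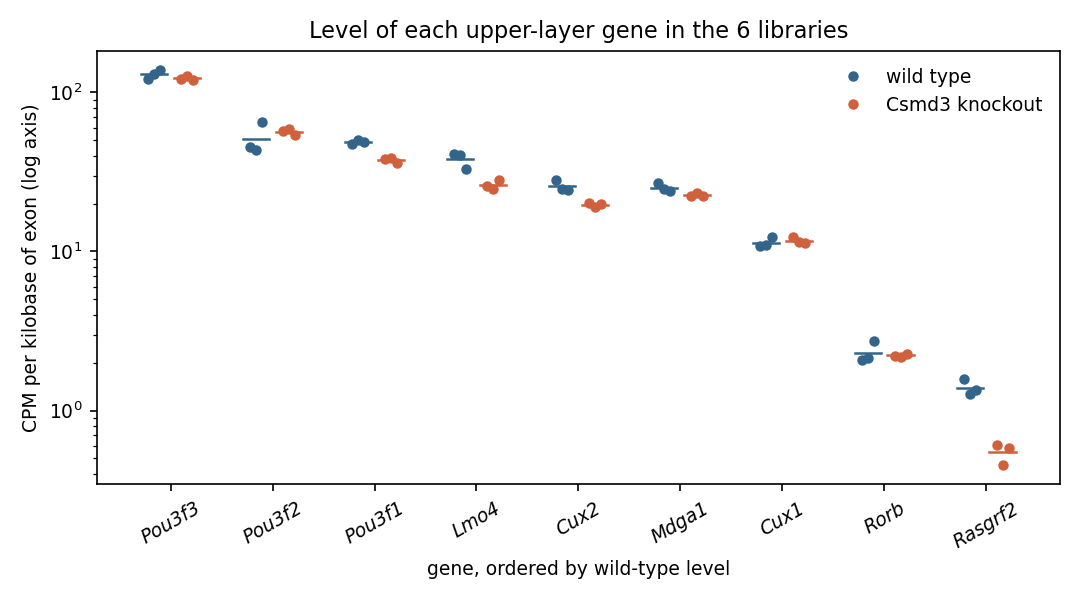
Level of each gene in CPM per kilobase of exon on a log axis, with a point per library and a bar at the mean of the 3 libraries of a group (blue, wild type; orange, knockout). The knockout points lie below all wild-type points for Pou3f1, Lmo4, Cux2, Mdga1 and Rasgrf2.

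Rasgrf2 (ENSMUSG00000021708.17, chromosome 13, 91880400 to 92131656, minus strand, mm10) showed the largest fall of the 9. Its product links calcium signals to Ras and is known in cortex as a marker of layer II and III neurons. Wild-type libraries had 14.5, 11.8 and 12.4 CPM and knockout libraries 5.60, 4.22 and 5.34 CPM. The groups did not come near each other: the lowest wild-type library was above the highest knockout library. The log2 fold change was -1.35 (SE 0.16, 95% interval -1.71 to -0.99, adjusted p = 0.00112). Since each fragment seems to have been entered as about 4 counts, the lowest library rested on about 67 fragments, a counting error of 12.2%. Rasgrf2 passed with any single library left out (-1.43 to -1.23, highest adjusted p = 0.00898), and it was at -1.19 without knockout libraries 2 and 3 together (adjusted p = 0.0591). Its RefSeq promoter window, from 250 bases before to 50 bases after the start site, is shown because the transcript changed most; it lies 172 bases from the start annotated in GENCODE (chr13:92131779-92132078, minus strand, GRCm38.p6).
Rasgrf2: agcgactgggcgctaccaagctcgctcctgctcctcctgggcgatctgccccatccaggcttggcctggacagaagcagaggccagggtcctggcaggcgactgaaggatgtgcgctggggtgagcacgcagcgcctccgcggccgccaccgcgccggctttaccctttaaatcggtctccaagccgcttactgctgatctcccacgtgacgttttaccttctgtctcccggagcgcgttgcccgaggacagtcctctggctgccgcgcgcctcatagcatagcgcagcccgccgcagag

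Lmo4 (ENSMUSG00000028266.17, chromosome 3, 144188530 to 144205220, minus strand) was second. Lmo4 has no DNA-binding domain of its own and bridges partners through its LIM domains. In wild type it had 144, 142 and 116 CPM and in knockout 91.6, 87.1 and 99.2 CPM. Wild-type library 3 was the wild-type sample nearest to the knockout values, but the groups did not overlap. Its log2 fold change was -0.53 (SE 0.10, 95% interval -0.75 to -0.31, adjusted p = 0.0115). Its call was lost without knockout library 1 (adjusted p = 0.0505) or 2 (0.0525), with the fold change between -0.63 and -0.48 over all libraries left out in turn.

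Cux2 (ENSMUSG00000042589.18, chromosome 5, 121856366 to 122050102, minus strand) is a classical marker of layers II to IV that also promotes dendrite branching and spine formation. Wild-type libraries had 282, 250 and 245 CPM and knockout libraries 204, 191 and 200 CPM. All knockout values were below the lowest wild-type value, and wild-type library 1 was the highest of all. The log2 fold change was -0.39 (SE 0.07, 95% interval -0.55 to -0.22, adjusted p = 0.0140). Its call was lost without knockout library 1 (adjusted p = 0.0512), 2 (0.0755) or 3 (0.0723), with the fold change between -0.42 and -0.33 over all libraries left out in turn.

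Cux1 (ENSMUSG00000029705.17, chromosome 5, 136248135 to 136567490, minus strand), the relative of Cux2 in the same layers, did not pass the test. It had 217, 220 and 246 CPM in wild-type libraries against 245, 230 and 226 in knockout libraries. The groups overlapped, and wild-type library 3 was the highest sample. Knockout and wild type differed by a log2 fold change of 0.04 (SE 0.07, 95% interval -0.13 to 0.20, adjusted p = 0.827). The gene also yields CASP, a Golgi membrane protein made by alternative splicing, and gene-level counts pool the products of its 14 annotated transcripts. An antisense gene, Gm16599, shares 1.97% of the exon length of Cux1 and held at most 17 deposited counts in a library.

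Because both genes were counted in the same library, the ratio of Cux2 to Cux1 counts needs no scaling between libraries. It was 1.299, 1.14 and 0.994 in wild-type libraries against 0.830, 0.830 and 0.885 in knockout libraries, so the groups did not overlap. The log2 difference was -0.42 (exact permutation test, two-sided, p = 0.1, the smallest that 3 against 3 libraries allow; 0.233 adjusted over 7 ratios). The 7 ratios, of a gene on the list to a relative, were chosen after the values were seen. Cux2 was separated between the groups by a larger factor than Cux1 varied over the 6 libraries. The separation of their ratio and its p were therefore fixed in advance and add no support. The RefSeq promoter windows of Cux2 (chr5:122049802-122050101), Cux1 (chr5:136565932-136566231) and Lmo4 (chr3:144205206-144205505), all on the minus strand of GRCm38.p6, are given to set a gene that fell beside its relative that did not pass and a second gene that fell. They lie 251, 1509 and 35 bases from the GENCODE starts of Cux2, Cux1 and Lmo4, so the Cux1 window is not at the outermost annotated start. Capitals in Lmo4 mark the GC box described further on.
Cux2: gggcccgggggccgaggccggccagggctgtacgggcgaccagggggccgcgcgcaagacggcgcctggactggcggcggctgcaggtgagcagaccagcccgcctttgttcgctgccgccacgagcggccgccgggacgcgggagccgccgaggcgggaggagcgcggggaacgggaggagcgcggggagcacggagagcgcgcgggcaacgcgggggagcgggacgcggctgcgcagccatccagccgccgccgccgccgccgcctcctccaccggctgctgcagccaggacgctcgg
Cux1: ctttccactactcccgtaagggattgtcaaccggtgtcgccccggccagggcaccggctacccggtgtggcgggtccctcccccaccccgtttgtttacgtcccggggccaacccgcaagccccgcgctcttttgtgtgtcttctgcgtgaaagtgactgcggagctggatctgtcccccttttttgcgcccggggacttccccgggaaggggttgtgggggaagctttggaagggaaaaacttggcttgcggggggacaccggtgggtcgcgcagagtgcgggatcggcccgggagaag
Lmo4: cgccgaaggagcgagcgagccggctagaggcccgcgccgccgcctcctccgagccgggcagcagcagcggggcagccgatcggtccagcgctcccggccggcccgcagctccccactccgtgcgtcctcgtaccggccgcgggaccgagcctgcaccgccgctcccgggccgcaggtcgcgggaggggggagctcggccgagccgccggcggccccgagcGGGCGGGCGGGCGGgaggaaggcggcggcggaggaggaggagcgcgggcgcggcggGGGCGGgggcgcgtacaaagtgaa

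Of the 3 POU genes, each without introns, 1 fell. Pou3f1 (ENSMUSG00000090125.3, chromosome 4, 124656807 to 124660655, plus strand), known as Oct6, was at 182, 193 and 189 CPM in wild-type libraries against 147, 149 and 139 in knockout libraries. Replicates were tight and the groups were clearly apart. The log2 fold change was -0.38 (SE 0.06, 95% interval -0.52 to -0.23, adjusted p = 0.00901), and its call was lost without knockout library 3 (-0.34, adjusted p = 0.0630). An antisense gene, Gm2164, shares 8.57% of its exon length and held 27 to 78 deposited counts in a library, against 7691 to 11195 for Pou3f1.

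Pou3f2 (ENSMUSG00000095139.2, chromosome 4, 22482780 to 22488366, minus strand), known as Brn2, did not pass. It had 252, 242 and 361 CPM in wild-type libraries against 322, 329 and 300 in knockout libraries. Wild-type library 3 was the highest of all 6 samples, whereas the other wild-type libraries were below every knockout library. Pou3f2 thus had a log2 fold change of 0.15 (SE 0.15, 95% interval -0.20 to 0.51, adjusted p = 0.630), and without wild-type library 3 it was 0.36 (adjusted p = 0.0139). Whether Pou3f2 passed thus depended on that sample, while its sign was positive either way.

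Pou3f3 (ENSMUSG00000045515.4, chromosome 1, 42695768 to 42703176, plus strand), known as Brn1, acts together with Pou3f2 in upper-layer neurons. It had 903, 961 and 1017 CPM in wild-type libraries against 898, 933 and 889 in knockout libraries. The ranges overlapped. This gave a log2 fold change of -0.08 (SE 0.07, 95% interval -0.23 to 0.07, adjusted p = 0.533). Pantr1, a noncoding gene on the opposite strand 926 bases from Pou3f3, was at 28.8 ± 4.25 CPM in wild type against 45.7 ± 17.5 in knockout (SD, n = 3) and did not pass either (adjusted p = 0.264). The Pou3f1 to Pou3f3 count ratio was 0.202, 0.201 and 0.185 in wild-type libraries against 0.164, 0.160 and 0.156 in knockout libraries, a log2 difference of -0.29 (exact permutation test, two-sided, p = 0.1; 0.233 adjusted over 7 ratios). These groups did not overlap, but those of the Pou3f2 to Pou3f3 ratio did (0.279, 0.252 and 0.355 in wild type; 0.358, 0.353 and 0.337 in knockout; exact permutation p = 0.3, 0.420 adjusted).

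Mdga1 (ENSMUSG00000043557.16, chromosome 17, 29827949 to 29970087, minus strand), which binds neuroligins and guides the radial migration of upper-layer neurons, was at 255, 234 and 227 CPM in wild-type libraries against 214, 221 and 211 in knockout libraries. All knockout libraries were below all wild-type libraries, by little. The log2 fold change of -0.15 did not pass (SE 0.07, 95% interval -0.30 to 0.0036, adjusted p = 0.236). Rorb (ENSMUSG00000036192.15, chromosome 19, 18930605 to 19111196, minus strand) was at 23.0, 23.6 and 30.1 CPM in wild-type libraries against 24.6, 24.2 and 24.97 in knockout libraries. Here again wild-type library 3 was highest, and the groups overlapped (log2 fold change -0.06, SE 0.12, 95% interval -0.33 to 0.21, adjusted p = 0.836).

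**Figure D3:**
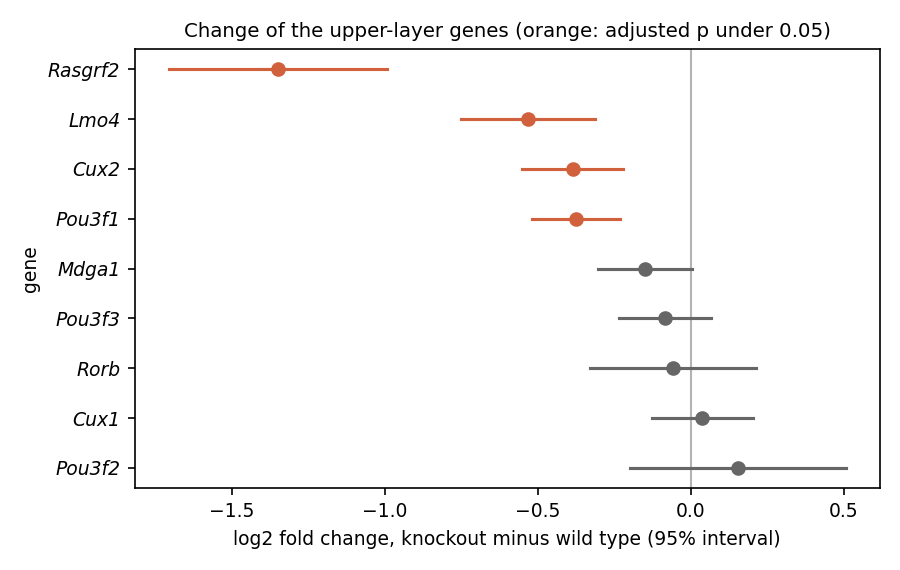
Log2 fold change of each gene, knockout minus wild type under TMM scaling, with its 95% interval from the quasi-likelihood fit on 3 against 3 libraries (orange, adjusted p under 0.05; grey, not). The intervals of Rasgrf2, Lmo4, Cux2 and Pou3f1 lie below 0 and those of the other 5 genes include it; Cux2 and Pou3f1 moved to about 0 with scaling on pan-neuronal genes.

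Family relatives were compared to ask whether whole gene families moved. Of 12 relatives 10 were tested, 1 rose and 0 fell (median log2 fold change 0.12), where 5.21% of all genes tested rose and 2.53% fell. The gene that rose was Rasgrf1, the other RasGRF exchange factor, with 8.09, 3.81 and 6.88 CPM in wild-type libraries against 10.8, 14.8 and 14.6 in knockout libraries. Its groups did not overlap, in the direction opposite to Rasgrf2 (log2 fold change 1.10, SE 0.27, adjusted p = 0.0456). Rasgrf1 no longer passed on omission of wild type 3 (adjusted p = 0.0864) or of knockout 1 (0.0626), 2 (0.143) or 3 (0.147). The Rasgrf2 to Rasgrf1 count ratio was 1.79, 3.09 and 1.81 in wild-type libraries against 0.517, 0.284 and 0.365 in knockout libraries, a log2 difference of -2.51 (exact permutation test, two-sided, p = 0.1; 0.233 adjusted over 7 ratios). Every knockout library was already lower for Rasgrf2 and higher for Rasgrf1. The separation of this ratio and its p were therefore fixed in advance and add no support. Among relatives that did not pass, Satb1, a CUT-domain chromatin organizer, was at 199 ± 15.1 CPM in wild type and 199 ± 14.6 in knockout, and Lmo3 was at 100 ± 6.53 and 82.7 ± 5.97 CPM (SD, n = 3; adjusted p = 0.990 and 0.0749). The ratios of Lmo4 to Lmo3, Mdga1 to Mdga2 and Rorb to Rora overlapped between groups (exact permutation p = 0.2, 0.9 and 0.9; adjusted 0.35, 0.9 and 0.9).

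**Figure D4:**
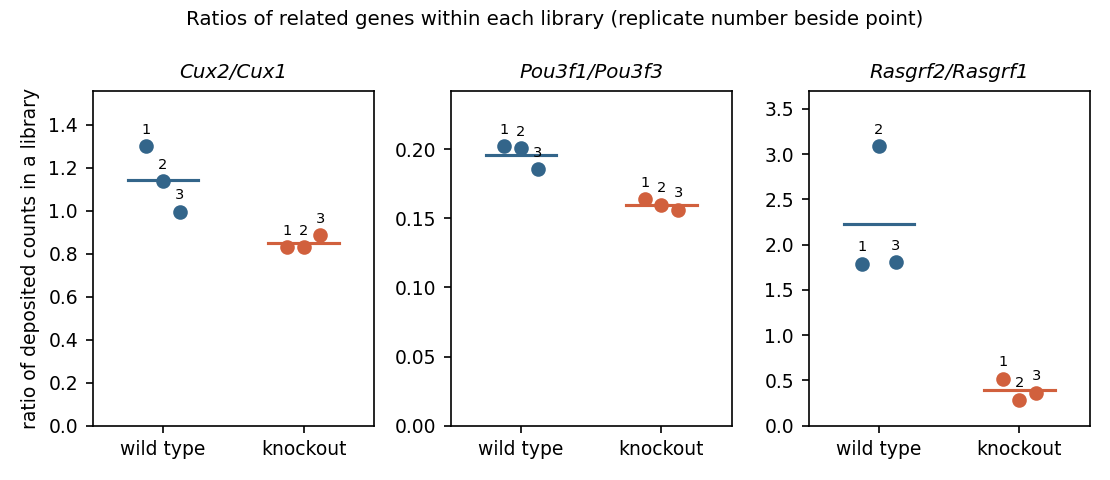
Ratio of deposited counts of 2 related genes in each library (points, numbered by replicate; bar, mean of 3), on linear axes from 0. The knockout libraries lie below all wild-type libraries in the 3 ratios drawn, for Rasgrf2 to Rasgrf1 at 0.284 to 0.517 against 1.79 to 3.09. Of 7 ratios examined, the 3 drawn are those whose groups did not overlap, and the rest overlapped. Each of the 3 had an exact permutation p = 0.1 (0.233 adjusted over 7 ratios). The separation in each was fixed in advance by the values of its 2 genes and adds no support.

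Partners of the encoded proteins were examined next. Of 10 tested, 1 rose and 1 fell (median 0.10), beside 5.21% and 2.53% of all genes tested. Ldb2, a LIM domain-binding cofactor of the kind that Lmo4 binds, fell from 73.1, 72.1 and 84.9 CPM to 55.0, 61.5 and 59.7 CPM (log2 fold change -0.38, SE 0.09, adjusted p = 0.0304). Ldb2 no longer passed on omission of wild type 1 or of a knockout library (adjusted p up to 0.128). Nlgn2, the neuroligin of inhibitory synapses and a partner of MDGA proteins, rose from 357, 338 and 309 CPM to 421, 410 and 390 CPM (0.28, SE 0.07, adjusted p = 0.0459). The call of Nlgn2 was lost with any single library left out (adjusted p from 0.0558 to 0.162). The most abundant of the list, Sox11, was at 1790 ± 227 CPM in wild type against 2031 ± 149 in knockout (SD, n = 3; adjusted p = 0.315).

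Further genes known from upper-layer or callosal neurons were also examined. Of 20 tested, 1 fell and 0 rose, 15 had a negative log2 fold change and the median was -0.19. Over all genes tested 2.53% fell, 5.21% rose and 49.7% had a negative log2 fold change. With scaling on pan-neuronal genes 0 of the 20 fell and 6 rose. Dkk3, a secreted protein of the Dickkopf family, fell from 64.0, 52.9 and 59.9 CPM to 43.9, 34.6 and 41.4 CPM (-0.56, SE 0.11, adjusted p = 0.0155). Dkk3 no longer passed on omission of wild type 1 or knockout 2 (adjusted p = 0.0610 for both) or knockout 3 (0.0675). Bhlhe22, a factor of cortical area identity, was at 459 ± 31.9 CPM in wild type against 385 ± 19.2 in knockout (SD, n = 3; adjusted p = 0.0721).

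Deep-layer and subplate genes are the nearest comparison. Of 14 tested, 1 fell and 0 rose (2.53% and 5.21% of all genes tested), and their median log2 fold change was 0.07. Crym, a thyroid hormone-binding protein of deep-layer neurons, fell from 63.0, 59.2 and 42.6 CPM to 38.6, 33.8 and 35.9 CPM (-0.61, SE 0.14, adjusted p = 0.0317), a call lost without any single library but wild-type 3 (highest adjusted p = 0.128). Bcl11b, a factor of subcerebral neurons, was at 279 ± 19.4 CPM in wild type against 327 ± 9.42 in knockout (SD, n = 3; adjusted p = 0.0847). Tbr1 was at 355, 351 and 350 CPM in wild-type libraries against 347, 341 and 139 in knockout libraries (adjusted p = 0.685). Whether upper-layer genes changed more than deep-layer genes was not tested.

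Genes expressed by neurons in general were examined in the same libraries, beside 2.53% of all genes tested that fell and 5.21% that rose. Of 15 pan-neuronal genes 6 fell and 0 rose, with a median log2 fold change of -0.33, beside -0.53 for Lmo4, -0.39 for Cux2 and -0.38 for Pou3f1. The summed level of that list was 9370 to 11082 CPM in wild type, lowest in library 3, and 7063 to 8455 CPM in knockout, and its most abundant gene, the tubulin gene Tubb3, fell from 3094 ± 336 to 2311 ± 106 CPM (SD, n = 3; adjusted p = 0.0180). Dcx, a microtubule protein of young neurons, was at 1441 ± 176 and 1472 ± 57.4 CPM (adjusted p = 0.886). Elavl4, an RNA-binding protein of neurons, was higher in every knockout library, at 72.7 ± 15.4 against 99.1 ± 8.18 CPM, without passing (adjusted p = 0.134). Much of the spread of the sum lay in 2 genes that did not pass, named after their values were seen: Mapt at 1384, 1294 and 321 CPM in the knockout libraries, and Map2 at 1163, 886 and 515 CPM in the wild-type libraries. When libraries were scaled on the geometric mean of this list, which moved the median of all genes to 0.38, Rasgrf2 was at -0.96 (SE 0.19, adjusted p = 0.00223) and still passed. Under that scaling Lmo4 was at -0.14 (adjusted p = 0.404), Cux2 at 0.0023 (0.989) and Pou3f1 at 0.0028 (0.987), so their direction or call was lost, and Cux1 passed as higher at 0.41 (0.0193), near the shift of all genes. Dkk3 (-0.17, adjusted p = 0.361), Crym (-0.21, 0.263) and Ldb2 (-0.0088, 0.967) did not pass there either. Of the 20 further upper-layer and callosal genes 6 rose there and 0 fell, and of the 14 deep-layer and subplate genes 6 rose and 0 fell. Over all 19844 genes tested 6274 rose and 92 fell under that scaling. Without Mapt and Map2 in the reference, Rasgrf2 was at -1.04 (adjusted p = 0.00170), and Lmo4 (-0.22, 0.118), Cux2 (-0.074, 0.517) and Pou3f1 (-0.070, 0.607) kept a negative sign but did not pass. Of the 4 genes that fell, Rasgrf2 alone fell relative to TMM and to both pan-neuronal references.

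**Figure D5:**
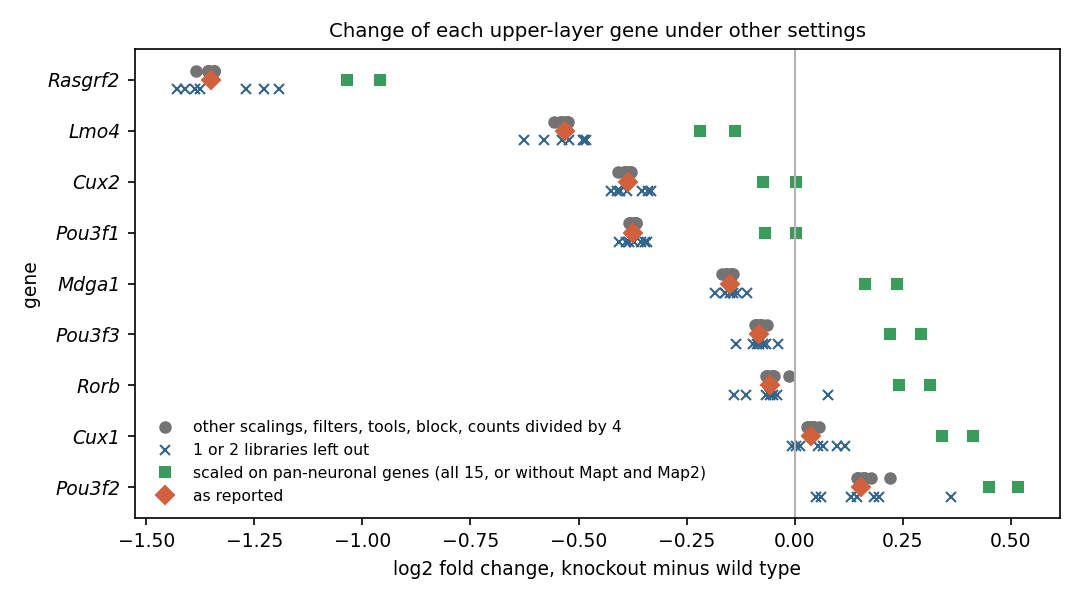
Log2 fold change of each gene as reported (orange), with libraries left out (blue crosses), with other scalings, filters, tools, the block and counts divided by 4 (grey) and with scaling on the 15 pan-neuronal genes or on that list without Mapt and Map2 (green). Both moved every gene to the right, with all 15 to 0.0023 for Cux2, 0.0028 for Pou3f1 and -0.96 for Rasgrf2.

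Marker transcripts of several other cell types also differed in level between the groups, and the part of those cell types in the result was not tested. Over all genes tested 5.21% rose and 2.53% fell. For each list its 2 most abundant genes are named, whether or not they passed. Of 12 meningeal and mural genes 10 rose (summed level 116 to 130 CPM in wild type and 675 to 833 CPM in knockout), led in level by Col3a1 and Col1a2. Of 8 endothelial genes 5 rose (224 to 252 and 384 to 474 CPM; Slc2a1 and Cldn5 most abundant), and of 10 microglial and macrophage genes 8 rose (34.6 to 39.9 and 111 to 140 CPM; Csf1r and Mrc1). Of 12 cell cycle genes 9 rose (559 to 696 and 907 to 927 CPM; Top2a and Mki67), and of 10 genes of intermediate progenitors, the direct source of many upper-layer neurons, 4 rose (561 to 722 and 819 to 908 CPM; Insm1 and Eomes). Wild-type library 3 had the highest wild-type sum of both of these lists. Of 12 radial glia genes 3 rose (2056 to 2102 and 2010 to 2250 CPM). The most abundant radial glia genes, Ptprz1 and Fabp7, were not among these, and Fabp7 was lower in every knockout library without passing. Of 5 tested choroid plexus genes 1 rose, with Ttr and Aqp1 most abundant. Their sum was 0.775 to 1.29 CPM in wild type and varied widely in knockout, at 9.55, 45.8 and 487 CPM in libraries 1, 2 and 3. Of 9 tested striatal and thalamic genes 1 rose and 1 fell (82.1 to 88.1 and 94.1 to 107 CPM; Ppp1r1b and Calb2). Of 12 interneuron genes 2 fell (489 to 602 and 397 to 482 CPM; Dlx1 and Lhx6), of 7 Cajal-Retzius genes 1 fell (366 to 575 and 305 to 465 CPM; Reln and Cxcr4), of 6 oligodendrocyte precursor genes 3 fell and 1 rose (97.4 to 130 and 86.8 to 104 CPM; Pdgfra and Olig1), and of 6 erythroid genes 0 passed the edgeR test (1519 to 2104 and 1884 to 2202 CPM; Hba-a1 and Hbb-bs).

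Genes whose pattern over the 6 libraries was most like that of a gene that fell are given as a description, by Pearson r of log2 CPM among 11074 other genes whose mean log2 CPM reached 3. All 6 points fall into the same 2 groups, so r reflects the group difference. For Rasgrf2 the nearest were Kcnab1, a potassium channel beta subunit (r = 0.995), the actin nucleator Cobl (0.994) and the ubiquitin ligase gene Dtx4 (0.993). Cobl had a log2 fold change of -1.19 (SE 0.14) and Dtx4 of -0.78 (SE 0.09). For Cux2 they were Rnf157 (0.998), Slain1 (0.997) and Nt5dc3 (0.997), for Lmo4 Gm10819 (0.9996), Rpp25 (0.996) and Pnmal2 (0.995), and for Pou3f1 Hmgcs1 (0.998), Syt16 (0.997) and Gyg (0.995).

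Promoter windows of 300 bases were found in the RefSeq table for 8 of the 9 genes, all but Pou3f1, and the window nearest to the GENCODE start was taken. That of Mdga1 lies 82205 bases from its GENCODE start. Motifs bound by factors on the list were searched on both strands: the POU octamer ATGCAAAT, the CUX motif ATCGAT and the ROR half-site AGGTCA. None of the 8 windows held any of the 3, which 1.74%, 0.925% and 16.3% of all 32851 promoter windows held. The GC box GGGCGG was present in 5 of the 8 windows (Lmo4, Mdga1, Pou3f2, Pou3f3 and Rorb), with overlapping matches counted separately, and in 35.7% of all windows. Among the windows printed, only that of Lmo4 held it, with 4 matches, and it overlapped no other motif searched. The G and C content of the 8 windows was 60.3% to 81.3%, against a median of 52.7% over all windows, highest in Lmo4 and Cux2 (80.3%).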

How the data were processed

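Estimated counts per gene for 6 libraries (3 wild type, 3 knockout) were deposited as whole numbers, per the file headers, and needed no rounding. The submitters' processing notes list StringTie 1.3.4, HISAT2 2.0.5, Trim Galore 0.4.4, FastQC 0.11.9 and build mm10, without roles; the counting program and strand handling are not stated there. Low values piled up at multiples of 4 (1298 genes at 4 and 492 at 3 in wild-type library 1), so a fragment appears to add about 4; counting errors were computed on counts divided by 4 and cover counting only. GENCODE M21, on the same assembly, named 55141 of 55401 rows; the other rows held at most 0.0238% of counts. Genes were filtered with filterByExpr, TMM-scaled and tested in edgeR 4.0.16 (R 4.3.3, robust quasi-likelihood F-test, Benjamini-Hochberg over 19844 genes, threshold 0.05); SE is the absolute log2 fold change over the square root of F, and 95% intervals use the fit's t quantile. CPM is TMM-scaled. The script was tested on simulated data.

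The 9 genes and all lists were chosen with earlier results of these data known. Named were the 9 genes, Csmd3, members past the threshold (at most 6) and the 2 most abundant of each neuron, relative and partner list, the 2 most abundant of each marker list, and the 3 genes most alike in pattern to each gene that fell; Gm16599, Gm2164, Pantr1 and the ratio pairs were added after values were seen. A gene that the rule names is not reported here. Alternatives were RLE, upper-quartile and pan-neuronal scaling, DESeq2 1.42.0, limma-voom (limma 3.58.1) with sample weights, 2 other filters, a replicate block and each library left out; 3 more, division of counts by 4, omission of knockout libraries 2 and 3, and pan-neuronal scaling without Mapt and Map2, were chosen after seeing the data.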

Additional observations from a re-analysis of the deposited data

How the results depend on the processing

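RLE and upper-quartile scaling, DESeq2, limma-voom, both filters, the replicate block and counts divided by 4 each kept the calls of Cux2, Lmo4, Pou3f1 and Rasgrf2 and called no other of the 9 genes. With scaling on pan-neuronal genes 1 of the 9 fell (Rasgrf2) and 1 rose (Cux1), their median was 0.24, and Cux2 (0.0023), Pou3f1 (0.0028), Mdga1 (0.24), Pou3f3 (0.29) and Rorb (0.31) changed sign; 6366 genes passed in all, since that scaling moved the median of all genes. Without Mapt and Map2 in that list, again 1 of the 9 fell and 1 rose, 5433 genes passed, the median of the 9 was 0.16, and Mdga1 (0.16), Pou3f3 (0.22) and Rorb (0.24) changed sign. Without knockout libraries 2 and 3 together 0 of the 9 and 305 genes in all passed the edgeR test, with 2156 at an unadjusted p under 0.05. Over all genes tested, 1536 passed as reported and 2401 with DESeq2.

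With each library left out in turn, 609 to 2358 genes passed in all, 2 to 4 of the 9 fell and their median was -0.18 to -0.13; the low counts of genes came without knockout library 3 and the high ones without wild-type library 3. Cux1 was at -0.0070 without wild-type library 1 and ranged up to 0.098, and Rorb was at 0.077 without wild-type library 3 and ranged down to -0.14. With replicate number as a block, 941 genes passed and 4 of the 9 fell, but the Rasgrf1, Ldb2 and Nlgn2 calls were lost (adjusted p = 0.107, 0.0575 and 0.0580). Same-numbered libraries did not deviate together (r = 0.028, -0.0026 and 0.0016 for numbers 1, 2 and 3), and wild-type libraries 2 and 3 each correlated best with another number. RLE scaling also lost Nlgn2 (0.0515) and no low-count filter lost Rasgrf1 (0.0546). Depth limits Rasgrf2 most, with about 67 to 216 fragments per library.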
